A study of Homo sapiens with 8 samples.

Results

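Transforming growth factor beta (TGF-beta) and activin are secreted dimers of one protein family, and 9 genes of their signalling route were followed here in 2 triple-negative breast cancer cell lines treated with Acetalax. The genes were the ligand genes TGFB2 and INHBA, the receptor gene TGFBR1, the signal transducer gene SMAD3, the inhibitor genes SMAD7, SKIL, PMEPA1 and FST, and THBS1, whose product releases TGF-beta from its latent form. They are 9 of the 55679 gene identifiers in the counts. The members were chosen by their symbols from measured values of these same libraries, namely their levels in all 8 and their log2 ratios between Acetalax-treated and control cells and between chronically exposed and parental cells. All of these are therefore given as a description without a test.

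The 8 libraries came from MDA-MB468 and BT549, human lines of triple-negative breast cancer. Parental and chronically exposed (CE) cells of each line were each represented by 1 control library and 1 library of cells treated with Acetalax (oxyphenisatin acetate) at 1 μmol/L for 6 hours. The CE cells are resistant clones that had been raised from 0.2 μmol/L to 40 μmol/L Acetalax and then kept without it for 2 weeks, so the CE control cells carried no drug when harvested but had met it before. Each condition had 1 library, so no difference within a line has a replicate check, and the 1 CE population of each line cannot stand for resistance in general. In bulk RNA, fewer cells with a transcript and less of it per cell cannot be told apart.

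In this pathway, a ligand dimer joins type II and type I receptors, the type I receptor phosphorylates SMAD2 and SMAD3, and these enter the nucleus with SMAD4 to regulate target genes. TGF-beta is secreted in a latent complex and must be released before it can bind, whereas activin is held in check by follistatin, the product of FST. Several inhibitors are themselves targets of the pathway and form negative feedback. In carcinoma cells the pathway is best known for growth arrest, matrix production and epithelial-mesenchymal transition.

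The totals of counts on genes were 42261122 to 54241728 per library, a 1.28-fold range, and levels are counts on a gene scaled to these totals (CPM) with a 95% Wilson interval, which covers counting error only. All 9 genes passed a mean of 5 CPM over the 8 libraries, as did 11135 genes in all, and these served as the background for every ratio. Summed CPM of 5 epithelial markers was 5028 to 7689 in the MDA-MB468 libraries and 5.75 to 87.5 in the BT549 libraries. Summed CPM of 4 mesenchymal markers was 15.4 to 55.5 in MDA-MB468, with CDH2 at 0, and 1624 to 3353 in BT549. Leukocyte markers summed to at most 0.830 CPM in every library, with CD3E at 0. The endothelial list, of which 2 of 3 markers had a value, reached 8.18 CPM in MDA-MB468 and 0.111 CPM in BT549. Of the 3 receptor genes that define triple-negative cells by low levels, ERBB2 was at 44.5 to 95.2 CPM in MDA-MB468 and 41.2 to 89.0 CPM in BT549, ESR1 at 3.50 to 5.15 CPM and at most 0.184 CPM, and PGR at 0 and at most 0.627 CPM. SMAD4, the partner of SMAD3, was at 0.226 to 0.408 CPM in the MDA-MB468 libraries and 36.8 to 43.9 CPM in the BT549 libraries.

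The promoters of the 9 genes were compared first, since the levels of several members varied together across the libraries. RefSeq sequences (GRCh38.p14) from 250 bases before to 50 bases after each start were available for all 9 and each matched 1 place on its hg19 chromosome. Of these, 3 are printed as the 250 bases before the start, 5′ to 3′, because they were the only members with a match to a TATA box (TATAAA) or a full cAMP response element (TGACGTCA), which the capitals mark. They are INHBA at chr7:41742689-41742938 on the minus strand, TGFB2 at chr1:218518428-218518677 on the plus strand and SKIL at chr3:170075253-170075502 on the plus strand, all hg19.
INHBA: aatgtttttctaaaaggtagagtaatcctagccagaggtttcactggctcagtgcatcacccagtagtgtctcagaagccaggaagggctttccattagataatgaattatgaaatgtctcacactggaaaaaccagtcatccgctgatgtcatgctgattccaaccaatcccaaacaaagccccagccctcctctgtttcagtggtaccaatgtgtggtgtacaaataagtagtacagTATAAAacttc
TGFB2: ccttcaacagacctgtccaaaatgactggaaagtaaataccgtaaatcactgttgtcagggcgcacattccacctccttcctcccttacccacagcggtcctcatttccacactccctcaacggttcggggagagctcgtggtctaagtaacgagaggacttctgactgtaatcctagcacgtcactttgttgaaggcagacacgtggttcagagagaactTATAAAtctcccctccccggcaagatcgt
SKIL: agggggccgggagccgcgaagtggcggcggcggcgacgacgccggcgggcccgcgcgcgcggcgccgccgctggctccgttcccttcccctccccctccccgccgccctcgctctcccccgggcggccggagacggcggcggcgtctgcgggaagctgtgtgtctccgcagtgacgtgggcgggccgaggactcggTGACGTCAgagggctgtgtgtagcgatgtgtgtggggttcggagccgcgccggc
Counting the first transcribed base as 1, with no base 0, the TATA box letters began at -11 in INHBA and at -29 in TGFB2. The cAMP response element began at -54 in SKIL. These positions are relative to the RefSeq start. It lay 18 bases downstream of the gene start given with the counts for INHBA, 37 bases downstream for SKIL and 899 bases upstream for TGFB2. Against the gene start given with the counts, the INHBA letters thus lie within the gene. The start used in these cells is not known.

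Searched on both strands, the TATA box letters stood in 2 of 9 member promoters and in 11.5% of the 35116 promoters of the same length. The cAMP response element stood in 1 of 9 and in 1.85% of all. An AP-1 element (TGACTCA or TGAGTCA) was in 0 of 9 and in 4.95% of all, and the palindromic SMAD element (GTCTAGAC) was in 0 of 9 and in 0.202% of all. The 5-letter SMAD box (CAGAC or GTCTG) was in 7 of 9, all but PMEPA1 and FST, against 45.3% of all promoters. No 2 of these motifs overlapped in a member. GC content was 43.3% in INHBA, 48.3% in SMAD7 and 51.7% in TGFB2 and rose to 80.3% in SMAD3, with a median of 58.7% over all promoters. A match of letters is a description and not a bound site.

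Acetalax was compared with control within each of the 4 backgrounds to ask which members differed after 6 hours of drug. Of the 36 ratios of the 9 genes, 31 were above 0, where 35.8% to 43.6% of all genes were in a single pair. The 5 genes TGFB2, INHBA, SMAD7, PMEPA1 and THBS1 were higher in all 4 treated libraries, as were 12.7% of all genes. INHBA alone among the members was at least 2-fold higher in all 4 pairs, which 12 genes (0.108%) of the background were. Ratios are log2 of treated over control on the CPM + 0.5 scale, with a 95% counting interval where one is given.

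**Figure D1:**
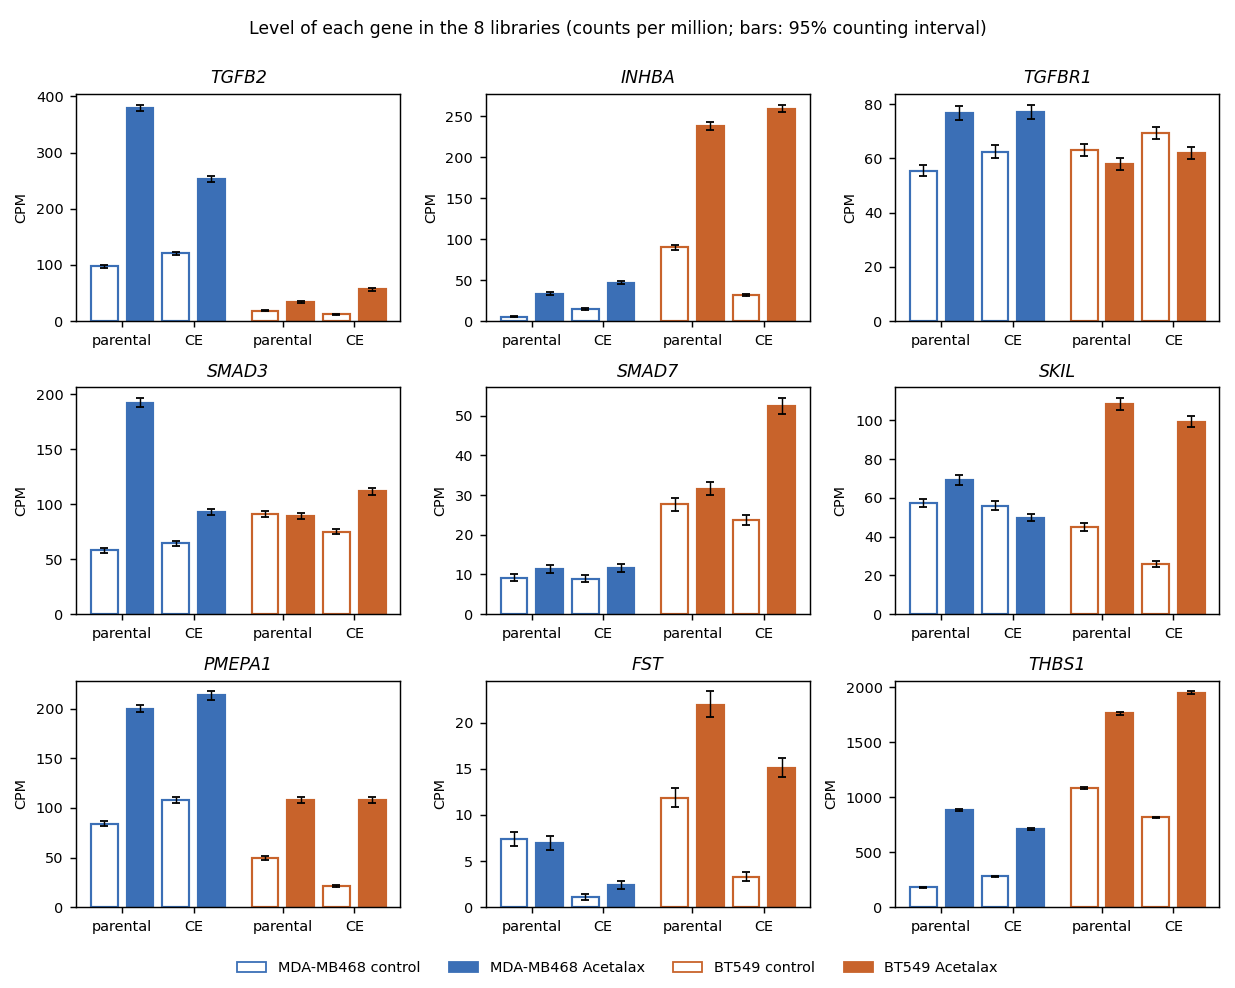
Levels of the 9 genes in the 8 libraries, in CPM on linear axes that start at 0 and differ between panels. Open bars are control and filled bars Acetalax-treated libraries of MDA-MB468 (blue) and BT549 (orange), with 95% counting intervals. INHBA was lowest in MDA-MB468 parental control cells (5.12 CPM) and highest in treated BT549 CE cells (259 CPM), whereas TGFBR1 stayed between 55.5 and 77.2 CPM.

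INHBA encodes the beta A chain of inhibin, whose homodimer is activin A, and lies on chr7:41724712-41742706 (minus strand, ENSG00000122641; this and the gene positions that follow are hg19). In MDA-MB468 its level was 5.12 CPM in parental control and 33.5 CPM in parental treated cells, and 14.9 CPM in CE control and 46.6 CPM in CE treated cells. In BT549 the corresponding levels were 90.1 and 238 CPM in parental cells and 31.5 and 259 CPM in CE cells. Each treated library was above its own control, and the lowest BT549 level and the treated MDA-MB468 parental level did not differ beyond their counting intervals. The log2 ratios were 2.60 (2.42 to 2.77) in MDA-MB468 parental, 1.62 (1.49 to 1.74) in MDA-MB468 CE, 1.40 (1.34 to 1.45) in BT549 parental and 3.02 (2.95 to 3.09) in BT549 CE cells. The first of these was 1.64 on the log2(FPKM + 1) scale. Its smallest ratio over the 4 pairs was matched or exceeded by 2 of the 11135 genes, itself included. An antisense gene on the other strand, INHBA-AS1, had 2 to 39 counts per library, 0.474% of the counts of INHBA.

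TGFB2 encodes the TGF-beta 2 ligand (chr1:218519577-218617961, plus strand, ENSG00000092969). Its level was 97.8 CPM in MDA-MB468 parental control, 379 CPM in parental treated, 120 CPM in CE control and 253 CPM in CE treated cells. BT549 cells had 18.5 CPM in parental control, 33.6 CPM in parental treated, 11.8 CPM in CE control and 56.3 CPM in CE treated cells. All 4 MDA-MB468 libraries were above all 4 BT549 libraries, and no neighbours in the order of the 8 levels had overlapping intervals. The log2 ratio to control was largest in BT549 CE cells at 2.21 (2.09 to 2.33), followed by 1.95 (1.90 to 2.00) in MDA-MB468 parental, 1.07 (1.02 to 1.11) in MDA-MB468 CE and 0.84 (0.72 to 0.97) in BT549 parental cells.

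THBS1 encodes thrombospondin 1, a secreted matrix glycoprotein that can free TGF-beta from its latency peptide (chr15:39873280-39891667, plus strand, ENSG00000137801). It was the most abundant member, also per length, at 19.8 to 213 FPKM (CPM per kilobase of exon), and its mean CPM exceeded that of 99.3% of the background genes. Levels in MDA-MB468 were 181 and 883 CPM in parental control and treated cells and 280 and 711 CPM in CE control and treated cells. BT549 cells had 1087 and 1764 CPM in parental control and treated cells and 817 and 1951 CPM in the same 2 conditions of CE cells. The treated MDA-MB468 parental library passed the BT549 CE control library, so the lines overlapped. Log2 ratios to control were 2.28, 1.34, 0.70 and 1.26 in MDA-MB468 parental, MDA-MB468 CE, BT549 parental and BT549 CE cells.

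TGFBR1, the type I receptor gene of TGF-beta (chr9:101866320-101916474, plus strand, ENSG00000106799), varied least. It was at 55.5 CPM in MDA-MB468 parental control, 76.8 CPM in parental treated, 62.5 CPM in CE control and 77.2 CPM in CE treated cells. BT549 had 63.1 CPM in parental control, 57.9 CPM in parental treated, 69.4 CPM in CE control and 61.9 CPM in CE treated cells. The treated libraries were thus above their controls in MDA-MB468 and below them in BT549, with log2 ratios of 0.46, 0.30, -0.12 and -0.16. The BT549 values lay near the median ratio of all genes, which was -0.10 in parental and -0.17 in CE cells, and that in CE cells became 0.04 with DESeq2 size factors.

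SMAD3 encodes a transcription factor phosphorylated by the TGF-beta and activin receptors (chr15:67356101-67487533, plus strand, ENSG00000166949). MDA-MB468 had 58.0 CPM in parental control, 192 CPM in parental treated, 64.2 CPM in CE control and 92.7 CPM in CE treated cells. In BT549 the levels were 91.1 and 89.4 CPM in parental control and treated cells and 74.8 and 112 CPM in CE control and treated cells. The treated MDA-MB468 parental library stood apart from the other 7, which ranged from 58.0 to 112 CPM. The log2 ratio was 1.72 (1.66 to 1.78) in MDA-MB468 parental, 0.53 in MDA-MB468 CE and 0.57 in BT549 CE cells. In BT549 parental cells it was -0.03, with an interval (-0.09 to 0.04) that included 0 and a sign that depended on the scaling.

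PMEPA1 encodes a membrane protein that binds SMAD2 and SMAD3 and holds back TGF-beta signalling, of which it is a target (chr20:56223448-56286592, minus strand, ENSG00000124225). In MDA-MB468 it was at 84.3 and 200.2 CPM in parental control and treated cells and at 108 and 213 CPM in CE control and treated cells. BT549 parental cells had 49.7 CPM in control and 108.0 CPM after treatment, and BT549 CE cells had 21.1 CPM in control and 108.0 CPM after treatment. Its 4 log2 ratios were 1.24, 0.98, 1.11 and 2.33, in the order MDA-MB468 parental, MDA-MB468 CE, BT549 parental and BT549 CE. The 2 treated BT549 libraries had the same CPM within counting error.

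SKIL encodes SnoN, a co-repressor that binds SMAD proteins (chr3:170075466-170114623, plus strand, ENSG00000136603). Its levels in MDA-MB468 were 57.2 CPM in parental control, 69.2 CPM in parental treated, 56.0 CPM in CE control and 49.9 CPM in CE treated cells. BT549 had 45.0 and 108 CPM in parental control and treated cells and 25.8 and 99.4 CPM in CE control and treated cells. The 2 treated BT549 libraries were the highest of the 8 and the BT549 controls the lowest, with the MDA-MB468 libraries in between. Log2 ratios were 0.27 and -0.17 in MDA-MB468 parental and CE cells, against 1.26 and 1.92 in BT549 parental and CE cells.

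SMAD7 encodes an inhibitory SMAD that blocks the type I receptor (chr18:46446223-46477081, minus strand, ENSG00000101665). It was at 9.13, 11.3, 8.97 and 11.6 CPM in the MDA-MB468 libraries, in the order parental control, parental treated, CE control and CE treated. The same order in BT549 gave 27.7, 31.5, 23.7 and 52.4 CPM. All treated libraries were above their controls, but the 2 treated MDA-MB468 libraries did not differ beyond their intervals, nor did the 2 MDA-MB468 controls. Log2 ratios were 0.29, 0.36 and 0.19 in MDA-MB468 parental, MDA-MB468 CE and BT549 parental cells and 1.13 (1.03 to 1.22) in BT549 CE cells.

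FST encodes follistatin, a secreted protein that binds activin and keeps it from its receptors (chr5:52776239-52782964, plus strand, ENSG00000134363). It was the least abundant member, with a mean CPM above that of 9.65% of the background genes. MDA-MB468 had 7.34 and 6.92 CPM in parental control and treated cells and 1.06 and 2.40 CPM in CE control and treated cells. BT549 had 11.9 and 22.0 CPM in parental control and treated cells and 3.26 and 15.1 CPM in CE control and treated cells. The log2 ratio was -0.08 (-0.28 to 0.12) in MDA-MB468 parental cells, an interval that included 0, and 0.89 (0.53 to 1.24), 0.86 (0.71 to 1.01) and 2.05 (1.84 to 2.26) in MDA-MB468 CE, BT549 parental and BT549 CE cells.

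**Figure D2:**
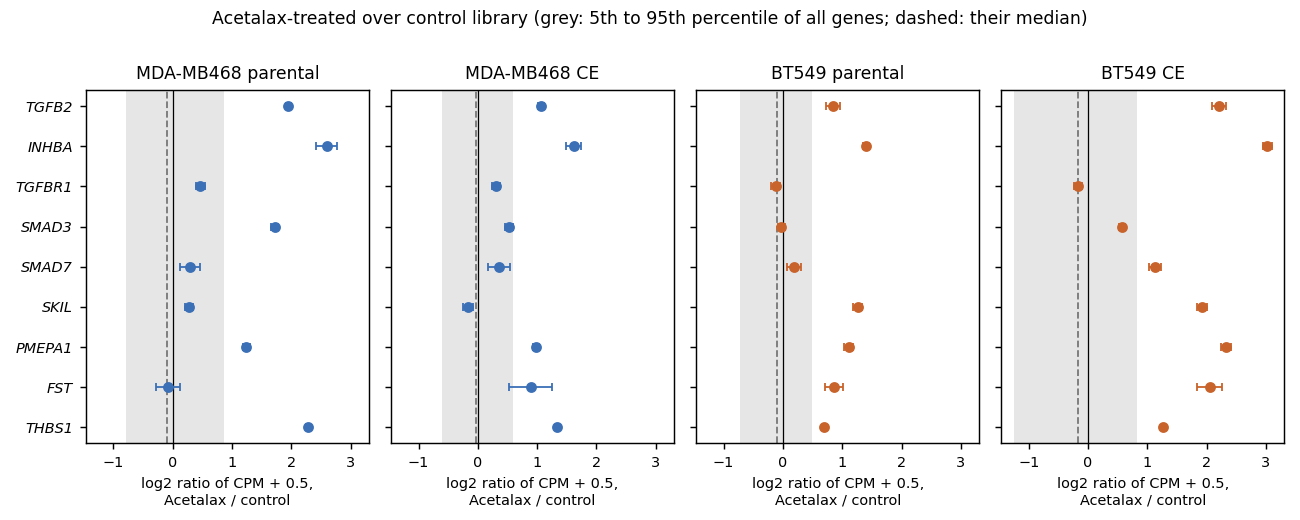
Log2 ratios of Acetalax-treated over control library (CPM + 0.5) for the 9 genes in the 4 backgrounds, with 95% counting intervals. Grey bands span the 5th to 95th percentile of the 11135 background genes and dashed lines mark their median. INHBA lay to the right of the band in all 4 panels (1.40 to 3.02), and TGFBR1 lay within it in all 4 (-0.16 to 0.46).

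By background, 5 of the 9 genes were at least 2-fold higher after Acetalax in the parental MDA-MB468 pair, where 3.81% of all genes were. The number was 3 of 9 in MDA-MB468 CE cells (1.5% of all genes), 3 of 9 in BT549 parental cells (1.06%) and 7 of 9 in BT549 CE cells (3.51%). The median log2 ratio of the 9 genes was 1.24, 0.89, 0.84 and 1.92 in this order, beside medians of -0.09, -0.04, -0.10 and -0.17 over all genes. Since the members were chosen on these ratios, nothing is read from these shares. Scaling by TMM or by DESeq2 size factors moved the median of all genes in BT549 CE cells to -0.03 or 0.01, so the ratios of that background are higher by about that shift under those scalings.

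The 2 lines served as replicates in a fit over all genes with edgeR's quasi-likelihood test and Benjamini-Hochberg adjustment. It called 0 of 19693 genes (0%) for Acetalax in parental cells, with 1710 genes at an unadjusted p under 0.05 and a smallest adjusted p of 0.543. In CE cells it called 0 of 19693 (0%), with 2311 at an unadjusted p under 0.05. DESeq2 called 75 and 289 genes in these 2 comparisons. The difference between the Acetalax responses of CE and parental cells was called for 0 of 19693 genes (0%) by edgeR and for 0 by DESeq2, and 91 genes in the edgeR fit had an unadjusted p under 0.05.

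Parental and CE cells differed in the size of the response in a way that went in opposite directions in the 2 lines for 6 of the 9 members. The share of all genes that did so was not computed, so nothing is read from this count. In MDA-MB468, the log2 ratio of CE minus that of parental cells was -0.98 (-1.19 to -0.76) for INHBA, -0.88 for TGFB2, -0.94 for THBS1, -1.19 for SMAD3, -0.44 for SKIL and -0.27 for PMEPA1. In BT549 it was 1.63 (1.54 to 1.71) for INHBA, 1.36 for TGFB2, 0.56 for THBS1, 0.60 for SMAD3, 0.66 for SKIL and 1.22 for PMEPA1. FST was the member with a clearly larger ratio in the CE cells of both lines, by 0.97 (0.56 to 1.38) in MDA-MB468 and 1.19 (0.94 to 1.45) in BT549. TGFBR1 in BT549 (-0.04) and SMAD7 in MDA-MB468 (0.06) had intervals that included 0. These intervals hold counting error only, and each CE response shares its control library with the comparison of CE and parental controls that follows.

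CE and parental cells were next compared without drug, to ask how the members stood in the resistant cells before any new exposure. FST was the only member at least 2-fold lower in the CE controls of both lines, with log2 ratios of -2.33 (-2.64 to -2.01) in MDA-MB468 and -1.72 (-1.94 to -1.50) in BT549. In CPM it was 6.90-fold lower in MDA-MB468 and 3.64-fold lower in BT549. INHBA went in opposite directions, 2.90-fold higher in MDA-MB468 CE controls (log2 ratio 1.45) and 2.86-fold lower in BT549 CE controls (log2 ratio -1.50). On the log2(FPKM + 1) scale of the study, which shrinks low levels, the MDA-MB468 ratio was 0.79 for INHBA and -1.40 for FST.

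**Figure D3:**
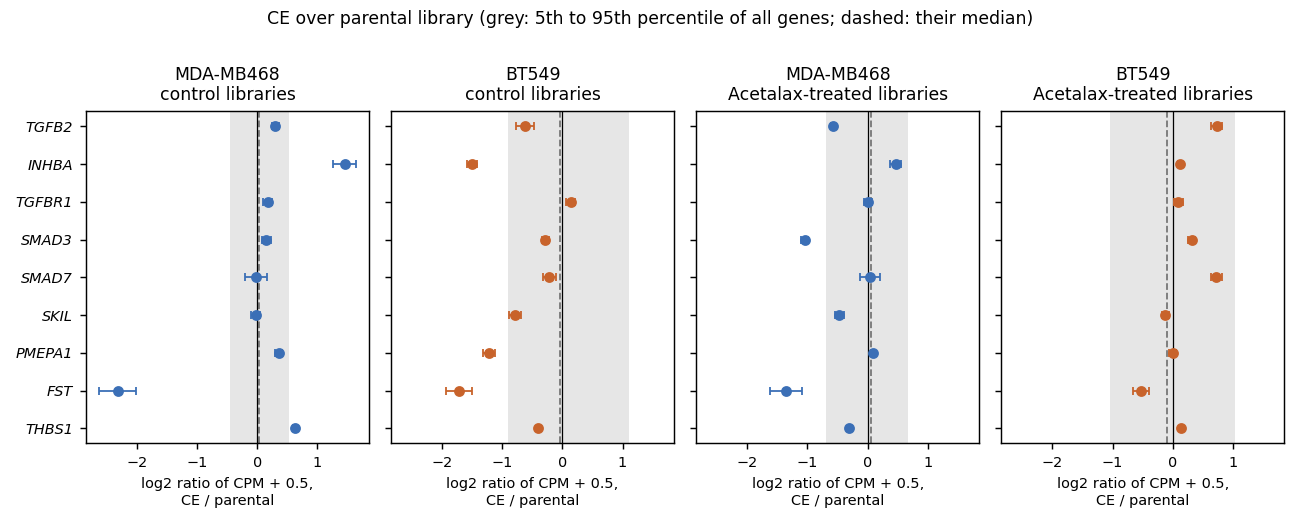
Log2 ratios of CE over parental library (CPM + 0.5) in control and in Acetalax-treated libraries of each line, with 95% counting intervals. Grey bands span the 5th to 95th percentile of the 11135 background genes and dashed lines mark their median. FST was left of 0 in all 4 panels, and INHBA was at 1.45 and -1.50 in the controls but at 0.47 and 0.12 in the treated libraries.

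In the MDA-MB468 control pair 6 of 9 genes were higher in CE cells, as were 54.6% of all genes. Of the 9, 1 was at least 2-fold higher (1.25% of all genes) and 1 at least 2-fold lower (1.36% of all genes). In the BT549 control pair 1 of 9 was higher, beside 45.8% of all genes, and 8 were lower. None (0) was at least 2-fold higher (6.02% of all genes) and 3 were at least 2-fold lower (3.93% of all genes). The 3 were INHBA, PMEPA1 at -1.22 and FST. The ligand TGFB2 was at 0.30 in MDA-MB468 and -0.63 in BT549, THBS1 at 0.63 and -0.41, PMEPA1 at 0.36 in MDA-MB468, and SMAD3 at 0.14 and -0.28. SKIL was at -0.79 in BT549, and in MDA-MB468 both SKIL (-0.03) and SMAD7 (-0.02) had intervals that included 0. TGFBR1 was slightly higher in both, at 0.17 and 0.14, beside medians of 0.02 and -0.04 over all genes. With edgeR on the 4 control libraries, 0 of 18377 genes (0%) were called, with 610 at an unadjusted p under 0.05, while DESeq2 called 46.

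Summed markers of cell state differed between CE and parental controls. The epithelial sum was 8.99 CPM in BT549 parental and 87.5 CPM in BT549 CE controls, and the mesenchymal sum was 3265 and 1624 CPM. In MDA-MB468 the epithelial sum was 5756 CPM in parental and 7332 CPM in CE controls and the mesenchymal sum 39.2 and 15.4 CPM. These sums rest largely on few genes. FN1 alone was at 1629 CPM in BT549 parental and 593 CPM in BT549 CE controls, and at 34.3 and 13.4 CPM in MDA-MB468. Among the epithelial markers, EPCAM was at most 0.189 CPM and CDH1 at most 0.959 CPM in every BT549 library. The part of the markers in the member levels was not tested.

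On the CPM + 0.5 scale, the CE and parental libraries of BT549 lay closer together after Acetalax for several members than the controls did. The log2 ratio of CE over parental in treated BT549 cells was 0.12 for INHBA, 0.15 for THBS1, -0.12 for SKIL and -0.52 for FST, and PMEPA1 was the same within counting error. TGFB2 and SMAD7 were higher in treated BT549 CE cells, at 0.74 and 0.72. In treated MDA-MB468 cells SMAD3 was lower in CE cells by a log2 ratio of -1.05, FST by -1.36 and TGFB2 by -0.58, and INHBA was higher by 0.47. SMAD7 and TGFBR1 had intervals that included 0 there. With DESeq2 size factors the treated BT549 ratios were 0.35 for INHBA, 0.37 for THBS1, 0.10 for SKIL, -0.30 for FST and 0.23 for PMEPA1. THBS1 was then no closer than in the BT549 controls (-0.36). The same libraries enter the Acetalax ratios above, so these values are another view of the same 8 levels.

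The transcripts of INHBA and FST, the genes of activin A and its antagonist follistatin, were set beside each other per length. Protein was not measured in these libraries. The ratio of INHBA to FST in FPKM was 0.232 (0.197 to 0.272) in MDA-MB468 parental control cells and 1.61 (1.43 to 1.81) after Acetalax, and 4.64 (3.45 to 6.23) in CE controls and 6.46 (5.35 to 7.80) after Acetalax. In BT549 it was 2.52 in parental control, 3.60 in parental treated, 3.20 in CE control and 5.70 in CE treated cells. MDA-MB468 parental control was the only library with less INHBA than FST per length. In each background the ratio was higher after Acetalax and in each line and treatment it was higher in CE than in parental cells. The counting intervals overlapped between the 2 MDA-MB468 CE libraries, between the 2 BT549 controls and between the BT549 CE control and parental treated libraries. Overlap of separate intervals does not decide a difference, and intervals of these differences were not computed. FSTL3, whose product also binds activin, is not part of this ratio. It was at 5.49 to 30.2 CPM in MDA-MB468 and 70.8 to 149 CPM in BT549.

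**Figure D4:**
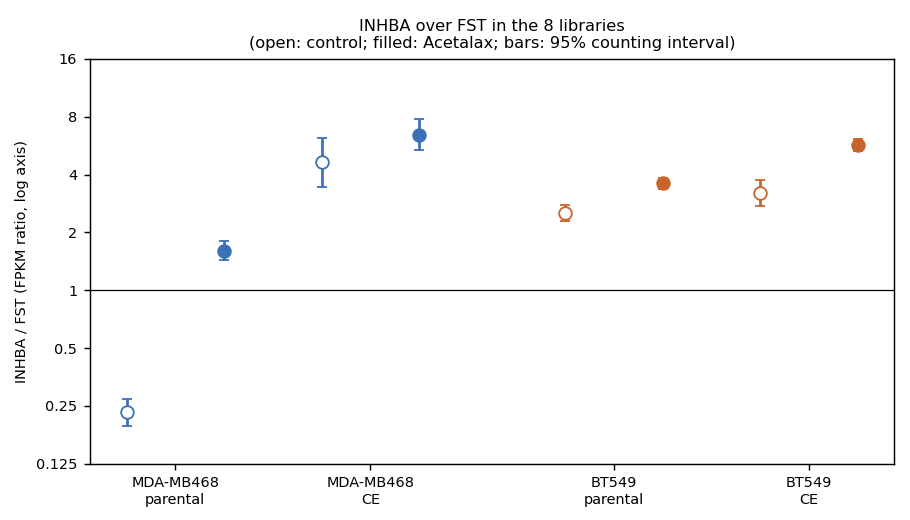
Ratio of INHBA to FST in FPKM in the 8 libraries on a log axis, with 95% counting intervals, open for control and filled for Acetalax-treated libraries. The ratio ran from 0.232 in MDA-MB468 parental control to 6.46 in MDA-MB468 CE treated cells and from 2.52 to 5.70 in BT549.

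The lines were compared over the 8 libraries with edgeR, the 4 conditions being blocks. Its quasi-likelihood test called 11188 of 19693 genes (56.8%). For the members, whose levels were known when they were chosen, the fitted log2 fold changes are a description. INHBA was higher in BT549 by 2.80 (SE 0.47), SMAD7 by 1.83 (SE 0.21), FST by 1.82 (SE 0.37) and THBS1 by 1.81 (SE 0.26). TGFB2 was lower in BT549, at -2.69 (SE 0.29), and so was PMEPA1, at -1.07 (SE 0.28). SMAD7 and TGFB2 had no overlap between the lines, since SMAD7 was at most 11.6 CPM in MDA-MB468 and at least 23.7 CPM in BT549. The share of all genes without such overlap was not computed, so nothing is read from this. The levels of INHBA, FST, THBS1 and PMEPA1 did overlap between lines across conditions.

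SKIL (0.21, SE 0.37), SMAD3 (0.19, SE 0.30) and TGFBR1 (0.07, SE 0.15) had differences smaller than their errors. Without the MDA-MB468 or the BT549 parental treated library, SMAD3 was at 0.60 or 0.57. PMEPA1 was at -0.70 without the MDA-MB468 CE control and -0.72 without the BT549 CE control library. The libraries of a line come from 1 cell line each, so these errors measure the spread over conditions and not over breast cancers.

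The wider pathway was read from a list of 72 other genes, chosen with earlier results of these data known, of which 62 passed a mean of 5 CPM. In the 4 Acetalax pairs, 21 of the 62 genes (33.9%) were higher in all 4 and 6 were lower in all 4, beside 12.7% of all genes higher and 30.6% lower in all 4. Among them, 6 genes (INHBB, GDF15, SMAD4, ITGB6, LDLRAD4 and SNAI2) had a mean under 1 CPM in 1 of the lines. Without these, 20 of 56 (35.7%) were higher and 6 of 56 (10.7%) lower in all 4, beside 13.2% and 31.8% of the 10255 genes measured in both lines. At least 2-fold higher were 13, 6, 6 and 15 genes in MDA-MB468 parental, MDA-MB468 CE, BT549 parental and BT549 CE cells, beside the shares of all genes given above for the members. The median log2 ratio of the list was 0.24, 0.15, 0.09 and 0.14 in these backgrounds. None (0 of 72) was called by edgeR for Acetalax in parental or CE cells or, of 70 tested, for CE against parental controls. Between the lines 51 of 72 were called, 38 higher in BT549 and 13 lower. Of all 19693 genes tested, 56.8% were called between the lines, 5382 higher in BT549 and 5806 lower.

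**Figure D5:**
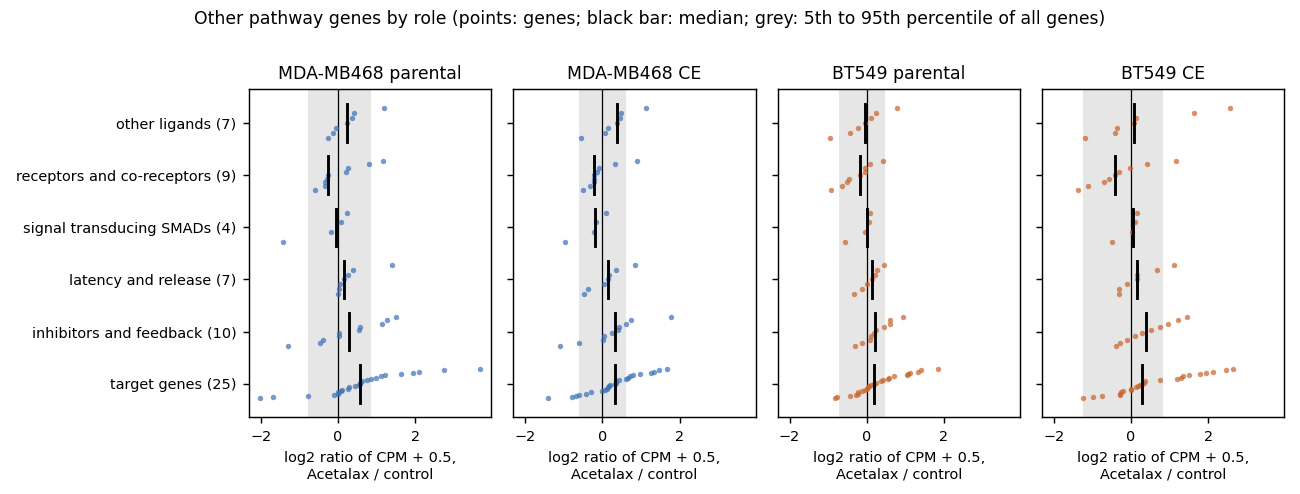
Log2 ratios of Acetalax-treated over control library (CPM + 0.5) for the 62 other pathway genes, grouped by role with the number of genes in brackets. Each point is a gene, black bars are medians of a role and grey bands span the 5th to 95th percentile of the 11135 background genes. Receptors and co-receptors had medians below 0 in all 4 panels (-0.16 to -0.41) and target genes above 0 (0.20 to 0.57). The median of all genes, not drawn, was also below 0 in all 4 (-0.04 to -0.17).

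Of all genes, 40.5%, 43.6%, 35.8% and 35.8% were higher after Acetalax in MDA-MB468 parental, MDA-MB468 CE, BT549 parental and BT549 CE cells, and the counts by role are to be read against these shares. Among 9 receptors and co-receptors other than TGFBR1, 4, 2, 2 and 2 were higher, with medians of -0.27, -0.21, -0.16 and -0.41. ENG, a co-receptor of TGF-beta and BMP, and BMPR1A, a type I receptor of bone morphogenetic proteins (BMPs), were lower in all 4 pairs, ENG by log2 ratios of -0.61, -0.10, -0.63 and -0.71. SMAD1, which carries BMP signals, had 44.2 CPM in control and 16.2 CPM in treated MDA-MB468 parental cells and was lower in all 4 pairs (-1.42, -0.97, -0.56 and -0.49). ID1, a classic BMP target, was also lower in all 4, at -1.69, -1.42, -0.27 and -0.997. Other BMP genes of the list did not all fall. BMP2, a BMP ligand gene, was higher in all 4 pairs (1.19, 1.14, 0.23 and 1.62). The inhibitor gene SMAD6 was too (0.54, 0.74, 0.10 and 0.28). The target gene ID3 was higher in MDA-MB468 (1.11 and 0.79) and lower in BT549 (-0.43 and -1.26). ID2, another target gene, was at -2.02, -0.68, 0.02 and -0.28, and the ligand gene BMP4 at -0.06, 0.49, -0.95 and -1.20. SMAD2 and SMAD5 had ratios between -0.23 and 0.23, and SMAD4 was at 0.06 and 0.01 in BT549, with a level in MDA-MB468 too low for a ratio.

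Target genes of TGF-beta or BMP were higher in 20, 18, 17 and 16 of 25 cases (all genes as above), with medians of 0.57, 0.33, 0.20 and 0.28. Without SNAI2, which was absent from MDA-MB468, the counts were 20, 18, 17 and 15 of 24. CYR61, a matricellular protein gene, had the largest smallest rise, with log2 ratios of 1.95, 1.35, 1.33 and 2.12 and 3598 CPM in treated BT549 CE cells. KLF10, an early TGF-beta response factor, was at 1.64, 0.66, 1.04 and 1.78, and CDKN1A, which encodes the cell cycle inhibitor p21, at 2.75, 0.61, 1.13 and 1.28. SMAD4 was at most 0.408 CPM in MDA-MB468, and the part of SMAD proteins in these ratios was not tested.

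Among inhibitors and feedback genes, 7, 8, 8 and 7 of 10 were higher after Acetalax, with medians of 0.28, 0.33, 0.22 and 0.40. FSTL3, which like follistatin binds activin, was at 1.51, 1.79, 0.61 and 0.74. Genes for latency and release of TGF-beta were higher in 6, 5, 5 and 4 of 7 cases and other ligands in 4, 6, 3 and 4 of 7, several of these counts near the shares of all genes. Without genes that had a mean under 1 CPM in 1 of the lines, the counts were lower for other ligands, at 2, 5, 1 and 2 of 5. For latency and release they were 5, 5, 4 and 3 of 6, and for inhibitors and feedback 7, 8, 7 and 6 of 9.

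Between CE and parental controls, 7 of the 62 genes were at least 2-fold higher and 3 at least 2-fold lower in MDA-MB468, where 1.25% and 1.36% of all genes were. In BT549 the numbers were 9 and 5, where 6.02% and 3.93% of all genes were, with list medians of 0.13 and 0.00. TGFBI, a matrix protein gene induced by TGF-beta, was higher in CE controls of both lines, at 18.1 and 45.96 CPM in MDA-MB468 and 80.4 and 1498 CPM in BT549. BMP7, a BMP ligand gene, was at 17.2 and 34.6 CPM in MDA-MB468 and at 0.237 and 16.7 CPM in BT549, and ID1 had log2 ratios of 1.40 and 1.07. Lower in CE controls of both lines were FN1, the fibronectin gene (-1.33 and -1.46), CTGF, a matricellular protein gene (-1.03 and -0.74), and ITGB8, an integrin chain that releases TGF-beta (-0.33 and -2.51). FN1 is also 1 of the 4 mesenchymal markers above.

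Members and other genes were finally ranked by likeness of pattern, as Pearson's r over the 8 libraries after the mean of each line was subtracted from log2(CPM + 0.5). Among the members, INHBA and PMEPA1 were most alike (r = 0.96), TGFB2 and THBS1 followed (r = 0.93), and TGFBR1 and SKIL were least alike (r = -0.35). The 2 genes most like INHBA among 11134 were GADD45A (r = 0.99) and ACSL4 (r = 0.98), and those most like TGFB2 were CHMP2B (r = 1.00) and MAP2K3 (r = 0.99). THBS1 was most like NUAK1 and PLK3, PMEPA1 like GSK3A and CLN8, SKIL like RAB7A and WBP4, and SMAD3 like REEP3 and FER. For TGFBR1 they were IDS and GALNT2, for SMAD7 CLP1 and NFKB1, and for FST CCT8 and MRPL14. With 8 libraries that share line and treatment, r of at least 0.95 was reached by 3 genes for FST and by 73 genes for TGFB2, so these are descriptions without a test.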

How the data were processed

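Poly(A)-selected RNA was read as pairs of 101 bases. The deposited values are raw counts per gene from STAR's GeneCounts option after alignment to hg19 by the authors (release 2.7.11b in the submitters' processing notes, while the study's methods name another release). Which annotation and strand column were taken is not given in the sources used here, so overlapping genes on opposite strands are uncertain. The deposited table had 58154 rows for 55679 identifiers; 1392 identifiers stood in more than 1 row and each was kept 1 time, and 28 symbols turned into dates were restored from the identifier.

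Totals of counts per library were 42261122 to 54241728, so 1 CPM was 42.3 to 54.2 counts. From the counts, CPM, FPKM with merged exon lengths (55663 identifiers matched to an hg19 GENCODE annotation) and log2 ratios of CPM + 0.5 were computed, with 95% intervals from counting error. Tests across genes used edgeR 4.0.16 in R 4.3.3 (TMM, filterByExpr, quasi-likelihood test, Benjamini-Hochberg adjustment, threshold 0.05) on all 8 libraries, with line by cells as intercepts and 1 Acetalax term per cell type, parental or CE (2 residual degrees of freedom), on the 4 controls with line and CE (1 residual degree of freedom), and on all 8 with the 4 conditions and line (3 residual degrees of freedom). The line fit was planned as a test of the members, but is given for them without p because their levels were known when they were chosen. DESeq2 1.42.0, other scalings, filters, pseudocounts and leaving out each library were alternatives. The scripts were tested on simulated data. The groups came from the sample labels and the doses and times from the study's methods.

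The members, the pathway list and the lists of markers were chosen with earlier results of these data known. Named genes were all members, the 4 list genes with the largest smallest rise and the 4 with the largest smallest fall over the Acetalax pairs, 3 each way for CE controls, and the 2 genes most like each member. BMP2, BMP4, SMAD6, ID2 and ID3 were named beside the BMP genes that fell.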

Additional observations from a re-analysis of the deposited data

Results flagged for a closer look

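Among the members, 5 differed in opposite directions between CE and parental controls in the 2 lines, higher in MDA-MB468 and lower in BT549. Of all genes, 54.6% were higher in CE controls of MDA-MB468 and 45.8% in those of BT549. The share with opposite directions was not computed, so nothing is read from the count of 5. The BT549 minus MDA-MB468 difference of the log2 ratios was -2.95 for INHBA, -1.57 for PMEPA1, -1.04 for THBS1, -0.92 for TGFB2 and -0.43 for SMAD3. The Acetalax ratio of TGFBR1 was above 0 in MDA-MB468 and below 0 in BT549, a difference of -0.59 in parental and -0.46 in CE cells. SKIL in CE cells was below 0 in MDA-MB468 and above 0 in BT549, a difference of 2.09. Each line had 1 library per condition, so these differences were not tested.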

How the results depend on the processing

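Requiring a mean of at least 1 CPM in each line, an alternative chosen after seeing the data, left the counts of the pathway list within 1.5 times in all 6 pairs. Of the 54 member ratios in the 4 Acetalax and 2 CE control pairs, 2 changed sign under another scaling: TGFBR1 in BT549 CE cells and SMAD3 in BT549 parental cells. Between treated CE and parental libraries, which are outside the 54, TGFBR1 and SMAD7 in MDA-MB468 and SKIL and PMEPA1 in BT549 also changed sign. On the log2(FPKM + 1) scale, which shrinks low genes, no member (0) was at least 2-fold higher in MDA-MB468 CE controls in place of 1, and the pathway list had 2 such genes in place of 7. With all genes of at least 1 count in place of the filter, edgeR called 643 genes for Acetalax in parental cells, 1080 in CE cells, 3 for the difference of these responses and 45 for CE against parental controls, where it had called 0. DESeq2 called 75, 289 and 46 in the first, second and last of these. The cause was not tested. DESeq2 size factors as offsets in edgeR gave 0 in all 4 and 11183 genes between the lines. Leaving out each library gave 9530 to 10252 genes between the lines. The line difference of TGFBR1 then lay between -0.023 and 0.23 and reversed without the MDA-MB468 CE control (-0.00078) or the BT549 CE control (-0.023). That of SKIL lay between -0.14 and 0.62 and reversed without the treated CE library of MDA-MB468 (-0.13) or BT549 (-0.14). SMAD3 lay between 0.021 and 0.60.

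Every ratio rests on 1 library against 1, and the counting intervals, hold no biological spread. FST, with 47 counts in MDA-MB468 CE controls, is the member that depth limits most.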
